A study of Homo sapiens with 12 samples.

Results

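The genes of branched-chain amino acid and keto acid breakdown were followed in K562 cells, an established line from chronic myelogenous leukaemia. The set holds 10 genes, chosen by symbol for their enzymatic role: the aminotransferases BCAT1 and BCAT2, the branched-chain ketoacid dehydrogenase subunits BCKDHA, BCKDHB and DBT, the kinase BCKDK and the phosphatase PPM1K that act on this complex, and the acyl-CoA dehydrogenases ACADSB, ACAD8 and IVD. All 10 were found by Ensembl identifier among the 17786 genes of the count table, and all 10 were among the 13598 genes with enough counts to be tested. The rule for choosing them uses no expression value.

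Messenger RNA was sequenced from 12 libraries in 3 groups of 4. The first group received 2 mM alpha-ketobutyrate (AKB) for 24 h, the second 2 mM pyruvate for 24 h, and the third was left untreated. All 12 came from the same cell line, kept in RPMI-1640 with 5% fetal bovine serum, and the medium already held 2 mM glutamine. Whether the 4 libraries of a group come from separate cultures is not stated in the labels. The p-values therefore rest on the spread among these libraries, part or all of which may be technical.

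Breakdown of leucine, isoleucine and valine begins with an aminotransferase, which moves the amino group to alpha-ketoglutarate and leaves a branched-chain keto acid. The mitochondrial branched-chain ketoacid dehydrogenase complex then removes carbon dioxide and joins the rest to coenzyme A. Phosphorylation by BCKDK switches the complex off, and dephosphorylation by PPM1K switches it on. Separate acyl-CoA dehydrogenases take the products of isoleucine, valine and leucine further. The complex also accepts AKB, a keto acid that differs from pyruvate by a methylene group. In chronic myelogenous leukaemia BCAT1 has been reported to work in the reverse direction, making branched-chain amino acids from keto acids. The direction was not measured here.

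Total counts per library lay between 15353200 and 21301073. Pyruvate replicates 3 and 4 stood apart from the other 10 libraries in the relation of level to the GC content of the transcript. Over 10021 genes their levels had slopes of 0.34 and 0.36 on the log2 scale per 10 percentage points of GC, whereas the slopes of the other 10 libraries lay between −0.15 and 0.0049. Many results that involve pyruvate are therefore given with these libraries and without them. The others rest on all 12 libraries. K562 markers were present in all 12 libraries, with GATA1 at 121 to 249 CPM (counts scaled to library size) and the fetal globin HBG2 at 3808 to 5844 CPM. Of 8 K562 markers edgeR called 1, HBE1, higher with AKB than in untreated cells and 2 lower with pyruvate, HBG1 and HBG2. Over all genes 1.97% and 1.95% were called in these comparisons. Between AKB and pyruvate edgeR called HBG2 and HBE1, both higher with AKB, beside 3.13% of all genes. At an unadjusted edgeR p below 0.05 the counts were 1, 7 and 6 of 8, beside 13.2%, 28.9% and 24.2% of all genes. Without pyruvate replicates 3 and 4, TAL1 was called lower with pyruvate than in untreated cells, and HBG1 and HBG2 were not. The 8 K562 markers summed to 14765 to 16704 CPM with AKB, 11122 to 13095 CPM with pyruvate and 13531 to 15355 CPM in untreated cells. Of 7 markers of other cell types, CD3E, CD14 and ALB were at or under 0.836 CPM in every library and at 0 in 5, 1 and 2 libraries. COL1A1 reached no more than 2.52 CPM, whereas LYZ stood at 28.1 to 51.8 CPM, EPCAM at 80.4 to 106 CPM and KRT19 at 99.1 to 136 CPM. The 7 summed to 259 to 275 CPM with AKB, 225 to 264 CPM with pyruvate and 247 to 255 CPM in untreated cells. LYZ, a monocyte marker, was higher with AKB than in untreated cells and than with pyruvate, as given beside ACADSB.

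Of the 10 genes 1 was called in each comparison. With AKB, ACADSB rose relative to untreated cells, and it was also higher with AKB than with pyruvate. With pyruvate, BCAT1 fell relative to untreated cells. The other 8 genes were not called in any of the 3 comparisons. Calls were made at an adjusted p below 0.05 in edgeR's quasi-likelihood test, with Benjamini-Hochberg adjustment over all 13598 genes. In the comparison of AKB with untreated cells 1.97% of all genes were called, in that of pyruvate with untreated cells 1.95%, and in that of AKB with pyruvate 3.13%. At an unadjusted p below 0.05 the counts of members were 2, 3 and 1 in the same order, beside 13.2%, 28.9% and 24.2% of all genes. The median log2 difference of the 10 genes was 0.063 with AKB, 0.0082 with pyruvate and 0.087 for AKB against pyruvate, beside medians of 0.0061, −0.0082 and 0.025 over all genes tested. Of the 10 estimates 6, 5 and 8 were above 0. AKB and pyruvate were set against the same 4 untreated libraries.

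**Figure D1:**
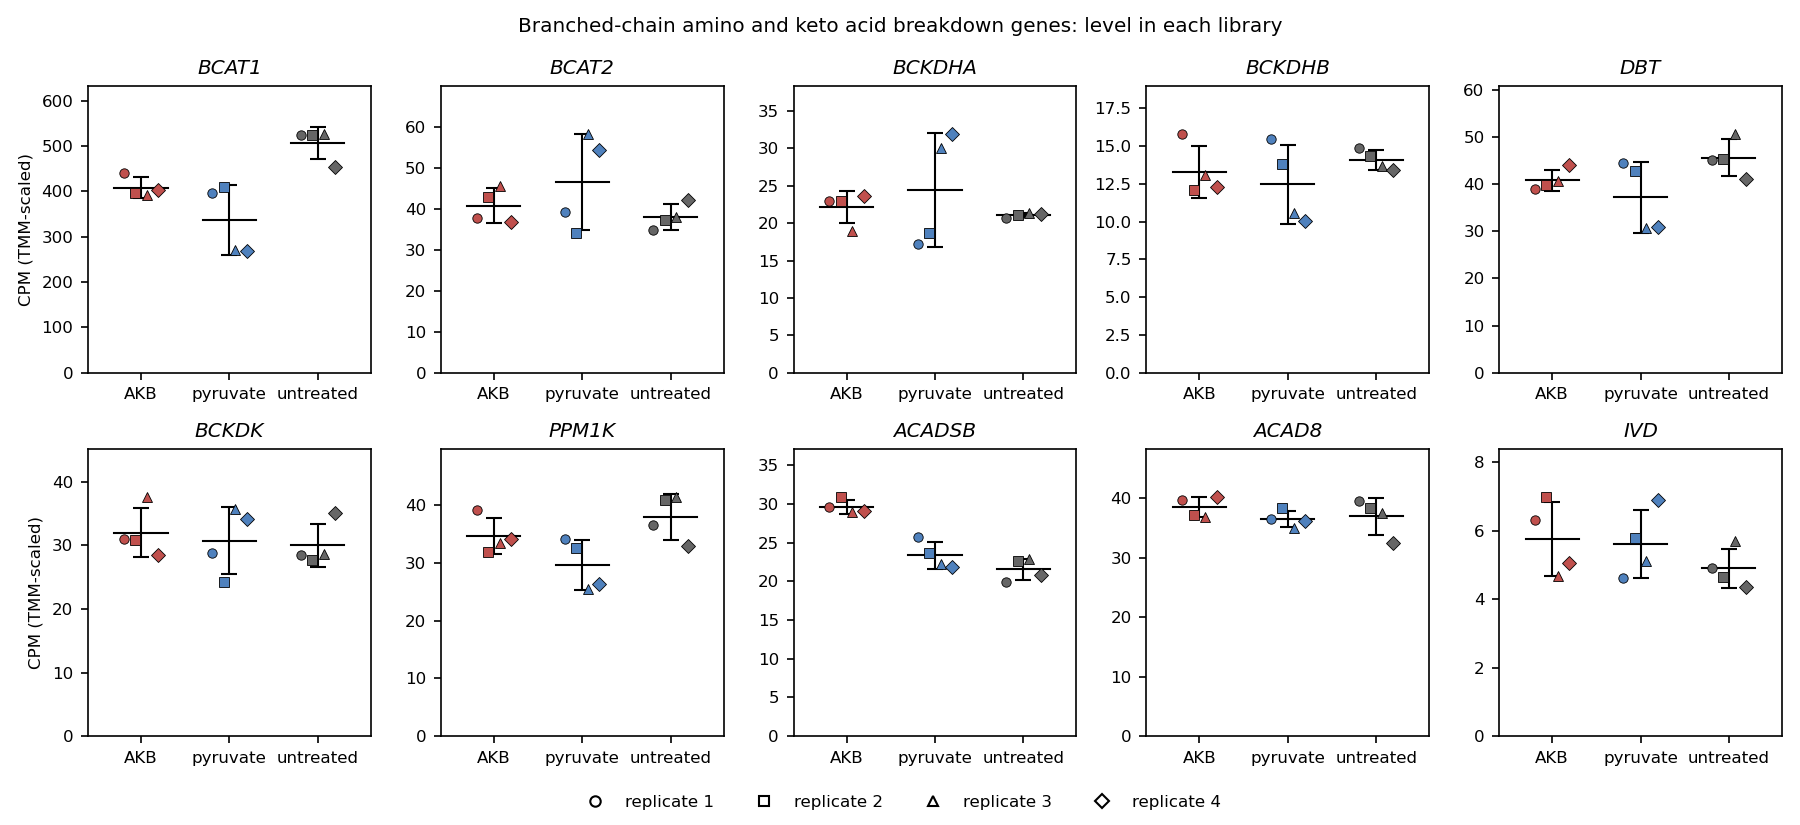
Level of each of the 10 genes in every library, in TMM-scaled CPM on a linear axis from 0, with AKB left, pyruvate in the middle and untreated right (n = 4 each). Marker shapes give the replicate number, the long line the mean and the error bar 1 SD. The 4 AKB libraries of ACADSB, between 28.99 and 30.9 CPM, lie above all untreated libraries, and pyruvate replicates 3 and 4 of BCAT1 lie lowest at 271 and 269 CPM.

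The aminotransferases were led by BCAT1 (ENSG00000060982, chr12:24810022-24949459, minus strand, GENCODE 29 on GRCh38), which encodes the cytosolic enzyme. It had 441, 396, 392 and 404 CPM in AKB libraries 1 to 4, and 398, 410, 271 and 269 CPM in pyruvate libraries 1 to 4. Untreated libraries 1 to 4 held 524, 524, 527 and 455 CPM. All 4 AKB libraries and all 4 pyruvate libraries were thus below all 4 untreated ones, and the pyruvate group split into a pair near the AKB level and a lower pair. BCAT1 fell with pyruvate to 337 ± 77.4 CPM, against 507 ± 35.3 CPM in untreated cells (SD, n = 4 each). This was a log2 fold change of −0.59 (SE 0.13, 95% interval −0.88 to −0.31, edgeR quasi-likelihood adjusted p = 0.0450), or 1.51-fold lower. Without pyruvate replicates 3 and 4 the difference was −0.33 (edgeR adjusted p = 0.0564), past the threshold no longer. With an offset for GC content it was −0.36 (edgeR adjusted p = 0.000426). With 1 library left out in turn it was called in 2 of 12 fits, those without pyruvate replicate 1 or 2, and in the other 10 the log2 difference was −0.64 to −0.49 (edgeR adjusted p between 0.0542 and 0.147). With AKB the gene averaged 408 ± 22.6 CPM, a log2 difference of −0.31 from untreated cells (SE 0.13, 95% interval −0.60 to −0.029) that missed the threshold (edgeR adjusted p = 0.321). With pyruvate replicates 3 and 4 left out of the shared estimate of spread, this AKB difference was again −0.31 and was called (edgeR adjusted p = 0.00633). Between AKB and pyruvate the log2 difference was 0.28 (95% interval −0.0066 to 0.56, edgeR adjusted p = 0.215), and 0.015 without those libraries.

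BCAT2 (ENSG00000105552, chr19:48795062-48811029, minus strand) encodes the mitochondrial aminotransferase. Its levels were 37.7, 42.9, 45.6 and 36.7 CPM in AKB libraries 1 to 4, and 39.3, 33.97, 58.3 and 54.3 CPM in pyruvate libraries 1 to 4. In untreated libraries 1 to 4 they were 34.7, 37.2, 37.9 and 42.2 CPM. The AKB and untreated ranges overlapped, and pyruvate replicates 3 and 4 were the highest of the 12 libraries. The log2 difference from untreated cells was 0.10 with AKB (SE 0.15, 95% interval −0.23 to 0.43, edgeR adjusted p = 0.852). With pyruvate it was 0.29 (SE 0.15, 95% interval −0.040 to 0.62, edgeR adjusted p = 0.215), and −0.052 without replicates 3 and 4. It was called when pyruvate replicate 2 was left out (0.41, edgeR adjusted p = 0.0395).

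The log2 ratio of BCAT1 to BCAT2 counts within a library, which does not depend on library size, was 3.33 ± 0.21 with AKB, 2.86 ± 0.70 with pyruvate and 3.74 ± 0.21 in untreated cells (SD, n = 4 each). It reached 3.10 to 3.55 in AKB libraries and 3.43 to 3.92 in untreated ones, so these groups overlapped. In the pyruvate group the ratio was 3.34 and 3.59 in replicates 1 and 2, and 2.22 and 2.31 in replicates 3 and 4. The lower pair had the low BCAT1 and the high BCAT2 together. No test was run on this ratio.

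The catalytic core of the dehydrogenase complex gave no call. BCKDHA (ENSG00000248098, chr19:41397460-41425005, plus strand), the E1 alpha subunit, stood at 23.0, 23.0, 18.9 and 23.6 CPM in AKB libraries 1 to 4, and at 17.2, 18.7, 30.1 and 32.0 CPM in pyruvate libraries 1 to 4. Untreated libraries 1 to 4 held 20.7, 21.1, 21.4 and 21.2 CPM. Untreated levels hardly varied, whereas the pyruvate libraries lay on both sides of them, replicates 1 and 2 below and replicates 3 and 4 above. The log2 difference was 0.069 with AKB (SE 0.18, 95% interval −0.32 to 0.45, edgeR adjusted p = 0.920) and 0.22 with pyruvate (SE 0.18, 95% interval −0.17 to 0.60, edgeR adjusted p = 0.404), the second turning to −0.23 without replicates 3 and 4 (edgeR adjusted p = 0.298). BCKDHA lies within the read-through gene AC011462.1 on the same strand, which had 0 to 4 counts per library, and shares 20 bases with EXOSC5 on the opposite strand. Antisense genes are annotated within BCAT1 and DBT as well. These overlaps are of whole gene spans with introns, and overlap of exons was not examined. No source used here says that counting used strand, so whether reads of such pairs were told apart is not known.

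BCKDHB (ENSG00000083123, chr6:80106647-80346270, plus strand), the E1 beta subunit, ranged over 12.1 to 15.8 CPM with AKB, 10.03 to 15.5 CPM with pyruvate and 13.4 to 14.9 CPM in untreated cells. The 3 ranges overlapped. Its log2 difference was −0.079 with AKB (95% interval −0.39 to 0.23, edgeR adjusted p = 0.879). With pyruvate it was −0.18 (95% interval −0.48 to 0.13, edgeR adjusted p = 0.399), and 0.059 without replicates 3 and 4. The log2 ratio of BCKDHA to BCKDHB counts was 0.74 ± 0.23 with AKB, 0.94 ± 0.76 with pyruvate and 0.59 ± 0.087 in untreated cells (SD, n = 4 each), with pyruvate libraries spread between 0.15 and 1.67.

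DBT (ENSG00000137992, chr1:100186919-100249834, minus strand) encodes the E2 core, the transacylase to which the other subunits bind. It had 38.9, 39.8, 40.7 and 44.0 CPM in AKB libraries 1 to 4, and 44.4, 42.7, 30.6 and 30.9 CPM in pyruvate libraries 1 to 4. The untreated libraries 1 to 4 had 45.1, 45.4, 50.7 and 41.1 CPM. AKB replicates 1 to 3 and pyruvate replicates 3 and 4 were below all untreated libraries, and the other treated libraries lay within the untreated range. The log2 difference was −0.16 with AKB (SE 0.12, 95% interval −0.43 to 0.11, edgeR adjusted p = 0.654) and −0.30 with pyruvate (SE 0.12, 95% interval −0.56 to −0.029, edgeR adjusted p = 0.145), the second −0.065 without replicates 3 and 4. The pyruvate difference was called when pyruvate replicate 1 (edgeR adjusted p = 0.0417) or replicate 2 (0.0489) was left out. DLD, the E3 subunit shared with other 2-oxo acid dehydrogenases, was named after its values were seen. It averaged 308 ± 15.4 CPM with AKB, 290 ± 53.4 CPM with pyruvate and 339 ± 16.4 CPM in untreated cells (SD, n = 4 each), and gave no call against untreated cells with AKB (edgeR adjusted p = 0.654) or with pyruvate (edgeR adjusted p = 0.180).

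The kinase and the phosphatase gave no call either. PPM1K (ENSG00000163644, chr4:88257620-88284769, minus strand), the phosphatase that activates the complex, had 39.1, 31.9, 33.4 and 34.1 CPM in AKB libraries 1 to 4. It had 34.05, 32.6, 25.6 and 26.3 CPM in pyruvate libraries 1 to 4, and 36.6, 40.8, 41.4 and 33.0 CPM in untreated libraries 1 to 4. The pyruvate values reached from below all other libraries into the untreated range. Its log2 difference with pyruvate was −0.36 (SE 0.11, 95% interval −0.60 to −0.11), missing the threshold (edgeR adjusted p = 0.0895), and −0.19 without replicates 3 and 4 (edgeR adjusted p = 0.455). DESeq2's Wald test on the same 12 libraries called it (log2 −0.35, adjusted p = 0.0330), as did edgeR without pyruvate replicate 1 (0.0292) or replicate 2 (0.0334). With AKB the difference was −0.13 (95% interval −0.38 to 0.11, edgeR adjusted p = 0.693). BCKDK (ENSG00000103507, chr16:31106107-31112791, plus strand), the inhibitory kinase, ranged over 28.5 to 37.5 CPM with AKB, 24.2 to 35.7 CPM with pyruvate and 27.7 to 35.04 CPM in untreated cells. Its log2 differences were 0.093 with AKB (95% interval −0.19 to 0.38, edgeR adjusted p = 0.835) and 0.035 with pyruvate (95% interval −0.25 to 0.32, edgeR adjusted p = 0.864), the second −0.18 without replicates 3 and 4. The log2 ratio of BCKDK to PPM1K counts was −0.12 ± 0.23 with AKB, 0.045 ± 0.45 with pyruvate and −0.34 ± 0.30 in untreated cells (SD, n = 4 each), and the 3 groups overlapped.

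Among the acyl-CoA dehydrogenases ACADSB (ENSG00000196177, chr10:123008979-123058311, plus strand), which acts on the isoleucine product 2-methylbutyryl-CoA, rose with AKB. It had 29.6, 30.9, 28.99 and 29.1 CPM in AKB libraries 1 to 4, and 25.7, 23.7, 22.3 and 21.9 CPM in pyruvate libraries 1 to 4. Untreated libraries 1 to 4 had 19.9, 22.6, 22.8 and 20.9 CPM. Every AKB library was above all pyruvate and all untreated libraries, while the pyruvate and untreated ranges overlapped. ACADSB averaged 29.6 ± 0.871 CPM with AKB and 21.5 ± 1.40 CPM in untreated cells (SD, n = 4 each). The log2 fold change was 0.46 (SE 0.075, 95% interval 0.30 to 0.62, edgeR adjusted p = 0.00917), or 1.38-fold higher, and it was called in all 22 alternative fits. Against the pyruvate mean of 23.4 ± 1.73 CPM, ACADSB was 1.27-fold higher with AKB (log2 0.34, SE 0.075, 95% interval 0.18 to 0.50, edgeR adjusted p = 0.0369). Without pyruvate replicates 3 and 4 this difference was 0.26 (edgeR adjusted p = 0.0816), and with the GC offset 0.16 (edgeR adjusted p = 0.221), neither past the threshold. With 1 library left out in turn it was called in 2 of 12 fits, those without pyruvate replicate 1 or 2, and in the other 10 the log2 difference was 0.30 to 0.35 (edgeR adjusted p between 0.0502 and 0.111). Pyruvate against untreated cells gave 0.12 (95% interval −0.045 to 0.28, edgeR adjusted p = 0.294), and with the GC offset 0.36, which was called (edgeR adjusted p = 0.0209).

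The monocyte marker LYZ was also higher with AKB than in both other groups. It stood at 51.8, 41.5, 44.7 and 51.0 CPM in AKB libraries 1 to 4, and at 30.9, 36.3, 28.4 and 28.1 CPM in pyruvate libraries 1 to 4. Untreated libraries 1 to 4 had 33.2, 37.3, 33.1 and 30.3 CPM, so every AKB library was above all others. The log2 fold change was 0.50 for AKB against untreated cells (SE 0.10, edgeR adjusted p = 0.0308) and 0.61 for AKB against pyruvate (SE 0.10, edgeR adjusted p = 0.0125). EPCAM and KRT19 were not called in these comparisons. COL1A1, at no more than 2.52 CPM, was not called either (edgeR adjusted p = 0.123 and 0.111). Its AKB libraries were all above the others, with log2 differences of 0.92 from untreated cells and 0.77 from pyruvate. Both differences were called with the GC offset and without pyruvate replicates 3 and 4. CD3E, CD14 and ALB were under the filter on low counts and not tested. The part of these markers in the ACADSB result was not tested.

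ACAD8 (ENSG00000151498, chr11:134253495-134265855, plus strand), the isobutyryl-CoA dehydrogenase of the valine branch, averaged 38.5 ± 1.67 CPM with AKB, 36.5 ± 1.38 CPM with pyruvate and 37.0 ± 3.10 CPM in untreated cells (SD, n = 4 each). Its log2 differences from untreated cells were 0.057 with AKB (95% interval −0.10 to 0.21) and −0.019 with pyruvate (95% interval −0.18 to 0.14). Neither passed (edgeR adjusted p = 0.813 and 0.869). IVD (ENSG00000128928, chr15:40405795-40435947, plus strand), the isovaleryl-CoA dehydrogenase of the leucine branch, was the least counted of the 10, with 72 to 148 counts per library. It averaged 5.76 ± 1.07 CPM with AKB, 5.60 ± 0.991 CPM with pyruvate and 4.90 ± 0.578 CPM in untreated cells (SD, n = 4 each). The log2 differences were 0.23 with AKB (95% interval −0.14 to 0.60, edgeR adjusted p = 0.635) and 0.19 with pyruvate (95% interval −0.18 to 0.56, edgeR adjusted p = 0.442).

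**Figure D2:**
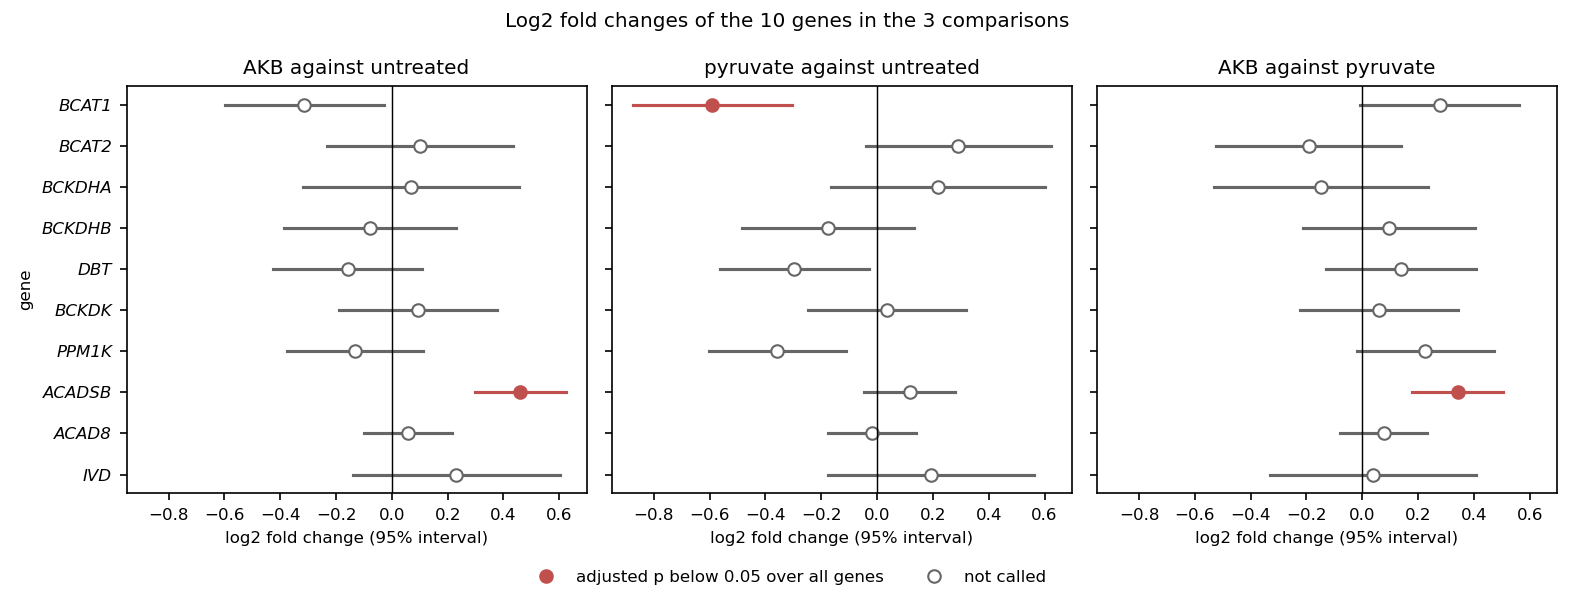
Log2 fold change of each of the 10 genes in the 3 comparisons, with 95% intervals from the edgeR quasi-likelihood fit to all 12 libraries. Filled red points passed an adjusted p of 0.05 over all genes, open points did not, and a positive value means higher in the first-named group. ACADSB passed with AKB against untreated (0.46) and with AKB against pyruvate (0.34), and BCAT1 with pyruvate against untreated (−0.59).

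Complete separation of the 4 and 4 libraries was found for 2 of the 10 genes with AKB against untreated cells, BCAT1 below and ACADSB above. For pyruvate against untreated cells it was found for BCAT1 alone, and for AKB against pyruvate for ACADSB alone. Over all genes tested, 17.2%, 10.9% and 11.6% separated in these comparisons.

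The position of pyruvate replicates 3 and 4 followed the GC content of the 10 transcripts. In 6 genes both libraries were lower than pyruvate replicates 1 and 2, and 5 of them had a transcript GC content between 37.9% and 40.7%, namely BCAT1, ACADSB, DBT, BCKDHB and PPM1K. The sixth, ACAD8, had 50.7%. Both were higher for BCKDHA (59.1%), BCKDK (60.4%) and BCAT2 (60.5%), and IVD (53.2%) was mixed. The log2 difference between the pairs was −0.58 for BCAT1, and 0.79 for BCKDHA. Over all genes with 35 to 40% GC, 94.0% were lower in both libraries (median −0.48), and with 60 to 65% GC 95.6% were higher in both (median 0.58). ACADSB differed by −0.16, less than most genes of similar GC content. Set against untreated cells, BCAT1 was lower by a log2 difference of −0.91 in pyruvate replicates 3 and 4 and of −0.33 in replicates 1 and 2. The labels name no batch that would set replicates 3 and 4 apart from replicates 1 and 2.

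**Figure D3:**
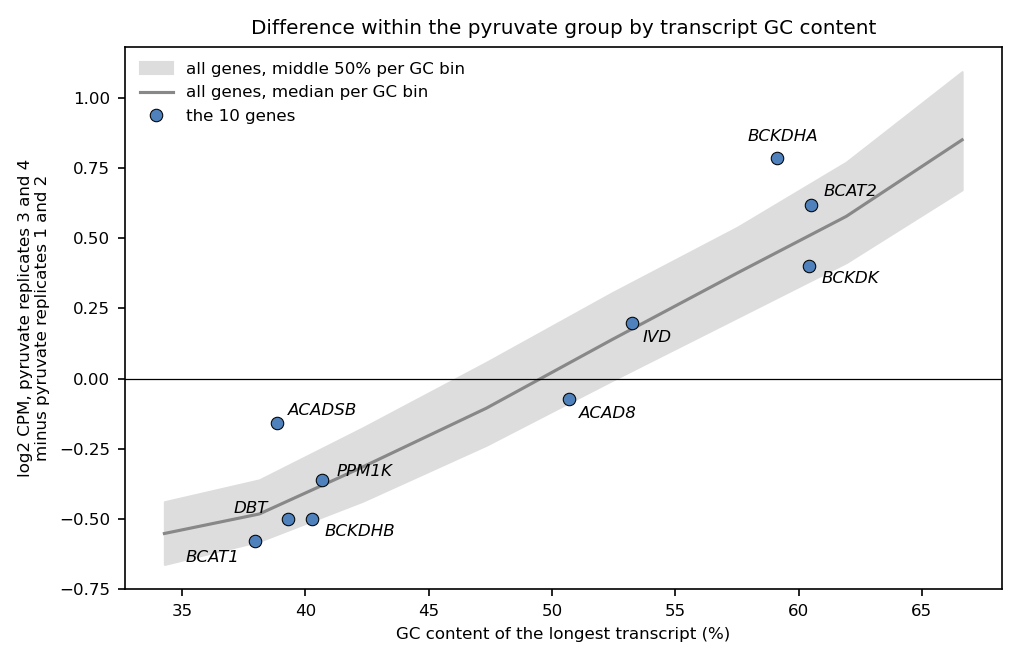
Mean log2 CPM of pyruvate replicates 3 and 4 minus that of pyruvate replicates 1 and 2 (vertical axis) against the GC content of the longest transcript in percent (horizontal axis). Points are the 10 genes, the line is the median of all genes per GC bin and the band their middle 50%. BCAT1 lies at −0.58 and 37.9% GC, and BCKDHA at 0.79 and 59.1% GC, above the band.

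Levels of different genes were compared per kb of the longest annotated transcript. In untreated cells BCAT1 was highest at 52.5 ± 3.65 CPM per kb (SD, n = 4), followed by BCAT2 at 16.9 ± 1.38 CPM per kb. BCKDK at 11.7, ACAD8 at 11.2 and BCKDHA at 10.04 CPM per kb came next. The untreated range of ACAD8 overlapped those of BCKDK and BCKDHA, while every BCKDK library was above every BCKDHA library. PPM1K stood at 5.85 CPM per kb. DBT at 4.22, BCKDHB at 3.81 and ACADSB at 3.68 CPM per kb formed a second group with overlapping ranges, and IVD was lowest at 1.15 CPM per kb. In AKB-treated cells ACADSB was seventh at 5.06 CPM per kb (range 4.95 to 5.27), above every library of DBT and BCKDHB, and its range overlapped that of PPM1K (4.92 to 6.03 CPM per kb). With pyruvate ACADSB was seventh too, at 3.99 CPM per kb (range 3.74 to 4.39), overlapping DBT and BCKDHB. With the median transcript length in place of the longest, the untreated order became BCAT1, PPM1K, ACAD8, BCKDHA, BCAT2, BCKDHB, ACADSB, BCKDK, DBT and IVD. BCAT1 was first under both lengths in all 3 groups, and IVD was last under both in untreated cells. With AKB and with pyruvate DBT was last by the median length, where IVD was last by the longest.

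**Figure D4:**
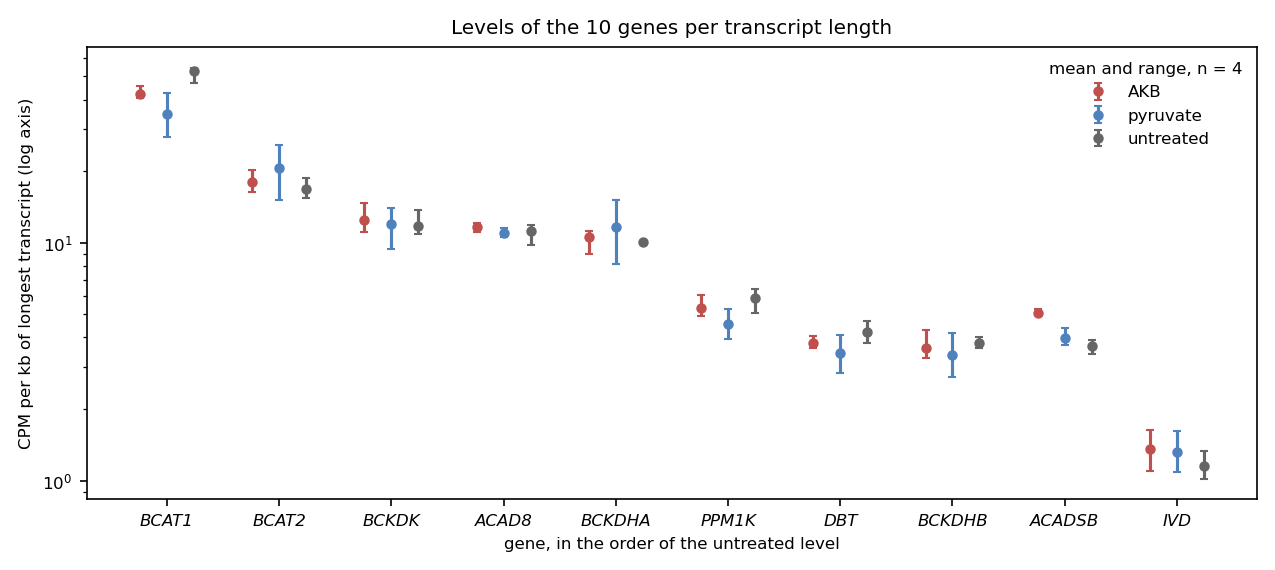
Level of the 10 genes per kb of longest transcript (CPM per kb, log axis), ordered by the untreated level, with AKB left, pyruvate in the middle and untreated right for each gene. Points are means and bars the range of 4 libraries. BCAT1 lies highest in all 3 groups, at 42.2 with AKB, 34.8 with pyruvate and 52.5 CPM per kb in untreated cells.

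The genes most alike to the called ones in their log2 CPM over the 12 libraries were read off among 10030 genes with at least 5 CPM on average. Nearest to ACADSB were AHNAK, which encodes a large scaffold protein (Pearson r = 0.94, Spearman rho = 0.83), FZD4, a Wnt receptor (0.92 and 0.87), and PTPRJ, a receptor tyrosine phosphatase (0.92 and 0.85). AHNAK averaged 558 ± 42.9 CPM with AKB, 390 ± 23.9 CPM with pyruvate and 362 ± 12.1 CPM in untreated cells (SD, n = 4 each). Nearest to BCAT1 were IARS1, the cytosolic isoleucyl-tRNA synthetase (r = 0.99, rho = 0.97), S100PBP (0.99 and 0.92) and XPOT, the tRNA export receptor (0.99 and 0.87). IARS1 averaged 573 ± 23.0 CPM with AKB, 499 ± 88.8 CPM with pyruvate and 653 ± 26.2 CPM in untreated cells (SD, n = 4 each). These coefficients are descriptions over 12 libraries that share 3 groups and the GC difference of pyruvate replicates 3 and 4, and the 3 genes nearest to BCAT1 have between 40.8% and 43.6% GC.

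Beyond the 10 genes, the later steps of branched-chain breakdown gave few calls. Of 21 listed genes 20 were in the table and 19 were tested, ABAT being under the filter and HMGCLL1 not analysed here. With AKB against untreated cells 0 of 19 were called by edgeR, by DESeq2's Wald test and by limma-voom, and 0 had an unadjusted edgeR p below 0.05. With AKB against pyruvate 1 fell, and with pyruvate against untreated cells 1 rose, both times HSD17B10. It encodes a dehydrogenase of isoleucine breakdown that is also part of mitochondrial RNase P. HSD17B10 had 58.1, 61.1, 52.6 and 59.4 CPM in AKB libraries 1 to 4, and 60.5, 86.7, 95.2 and 91.4 CPM in pyruvate libraries 1 to 4. The untreated libraries 1 to 4 had 56.4, 50.4, 52.5 and 59.9 CPM, so pyruvate replicate 1 was the one close to the other groups. The log2 fold change was 0.61 with pyruvate (SE 0.12, edgeR adjusted p = 0.0345) and −0.53 for AKB against pyruvate (SE 0.12, edgeR adjusted p = 0.0429), and neither was called without pyruvate replicates 3 and 4 (0.43 and −0.35). With 1 library left out in turn, the first was called in 3 of 12 fits (without untreated replicate 4 or pyruvate replicate 1 or 2) and the second in 2 (without pyruvate replicate 1 or 2). MCCC2 was called lower with AKB than in untreated cells in the fit without pyruvate replicates 3 and 4. The list medians were 0.029 with AKB, −0.027 with pyruvate and 0.046 for AKB against pyruvate.

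The other 2-oxo acid dehydrogenase complexes, which include pyruvate dehydrogenase, had 14 of 16 listed genes tested, PDK2 and PDK4 being under the filter. The edgeR test called 0 of them in the 3 comparisons, with 1, 4 and 5 at an unadjusted p below 0.05 (13.2%, 28.9% and 24.2% of all genes), DESeq2's Wald test calling 0, 1 and 3 and limma-voom 0 in each. The nearest to a call were PDHA1, the E1 alpha subunit of pyruvate dehydrogenase, with pyruvate (195 ± 15.6 CPM, against 163 ± 5.73 CPM in untreated cells, edgeR adjusted p = 0.0591), and DHTKD1, an E1 subunit of the lysine and tryptophan pathway. DHTKD1 averaged 24.9 ± 2.53 CPM with AKB and 18.7 ± 2.65 CPM with pyruvate (SD, n = 4 each, log2 0.41, edgeR adjusted p = 0.0614). Without pyruvate replicate 1 the PDHA1 difference was called (edgeR adjusted p = 0.00675), as it was without replicate 2 (0.0334), and without replicate 2 that of DHTKD1 was (0.0199). Neither was called without pyruvate replicates 3 and 4, where PDHX was called lower with AKB than in both other groups. The list medians were −0.013 with AKB, −0.096 with pyruvate and 0.087 for AKB against pyruvate.

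Of 11 further acyl-CoA dehydrogenase and electron transfer flavoprotein genes 10 were tested, ACADL being under the filter. The edgeR test called 0, with 0, 2 and 4 at an unadjusted p below 0.05 in the 3 comparisons (13.2%, 28.9% and 24.2% of all genes), DESeq2's Wald test calling 0, 2 and 1 and limma-voom 0 in each. ETFB, a subunit of the flavoprotein that takes electrons from ACADSB, ACAD8 and IVD, averaged 57.4 ± 2.77 CPM with AKB and 69.7 ± 6.11 CPM with pyruvate (SD, n = 4 each, edgeR adjusted p = 0.0559). ACADVL, the very long chain enzyme, averaged 149 ± 29.6 CPM with pyruvate and 113 ± 6.68 CPM in untreated cells (SD, n = 4 each, edgeR adjusted p = 0.0760). Both differences were called without pyruvate replicate 1 (edgeR adjusted p = 0.0113 for ETFB and 0.0182 for ACADVL) and without replicate 2 (0.0396 and 0.0215). Neither was called without pyruvate replicates 3 and 4, where GCDH was called lower with AKB than in untreated cells. GCDH was also called lower with AKB under the GC offset, while in the main fit its log2 difference was −0.18 (edgeR adjusted p = 0.441). ACADVL had 124, 124, 172 and 178 CPM in pyruvate libraries 1 to 4. The list medians were −0.022 with AKB, 0.092 with pyruvate and −0.13 for AKB against pyruvate.

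The plasma membrane carriers of branched-chain amino acids gave the most calls among these lists, which were chosen with earlier results of these data known. All 7 were tested. With AKB 2 of 7 fell, and with pyruvate 2 of 7, where 1.97% and 1.95% of all genes were called. At an unadjusted edgeR p below 0.05 the counts in either direction were 4 and 3 of 7, beside 13.2% and 28.9% of all genes. The 4 with AKB included SLC7A8, which was higher (log2 0.36, edgeR adjusted p = 0.376). Without pyruvate replicates 3 and 4, SLC7A5, SLC3A2 and SLC43A1 were called lower with pyruvate than in untreated cells. In that fit SLC7A8 was called higher with AKB than in both other groups, and SLC43A1 higher with AKB than with pyruvate. SLC7A5, the LAT1 carrier, had 190, 226, 222 and 211 CPM in AKB libraries 1 to 4, and 242, 206, 290 and 310 CPM in pyruvate libraries 1 to 4. The untreated libraries 1 to 4 had 339, 364, 348 and 377 CPM. Both treatments lay below all untreated libraries. The log2 fold change was −0.75 with AKB (SE 0.11, edgeR adjusted p = 0.00525), or 1.68-fold lower, and −0.45 with pyruvate, which missed the threshold (edgeR adjusted p = 0.0569) and was called at −0.67 without replicates 3 and 4 (edgeR adjusted p = 0.00312). It was also called without pyruvate replicate 1 (0.0452) or replicate 2 (0.0247).

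SLC3A2, the heavy chain that pairs with SLC7A5, had 168, 160, 157 and 157 CPM in AKB libraries 1 to 4, and 161, 155, 189 and 186 CPM in pyruvate libraries 1 to 4. The untreated libraries 1 to 4 had 239, 236, 243 and 232 CPM. Both treated groups were below all untreated libraries. SLC3A2 fell with AKB (log2 −0.56, SE 0.069, edgeR adjusted p = 0.00155) and with pyruvate (−0.46, SE 0.069, edgeR adjusted p = 0.00859), the second not called without untreated replicate 1 (0.0580). SLC43A1, a further facilitative carrier of large neutral amino acids, averaged 38.8 ± 1.44 CPM with AKB, 32.6 ± 3.14 CPM with pyruvate and 43.8 ± 1.14 CPM in untreated cells (SD, n = 4 each). It fell with pyruvate (log2 −0.43, SE 0.074, edgeR adjusted p = 0.0206, and between 0.0712 and 0.0921 without untreated replicate 1, 2 or 3 or pyruvate replicate 4), while the AKB difference was −0.17 (edgeR adjusted p = 0.331). Between AKB and pyruvate edgeR called 0 of 7 carriers, with 3 at an unadjusted p below 0.05 (24.2% of all genes), DESeq2's Wald test calling 2 and limma-voom 0. The list medians were −0.17 with AKB, −0.018 with pyruvate and −0.080 for AKB against pyruvate.

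**Figure D5:**
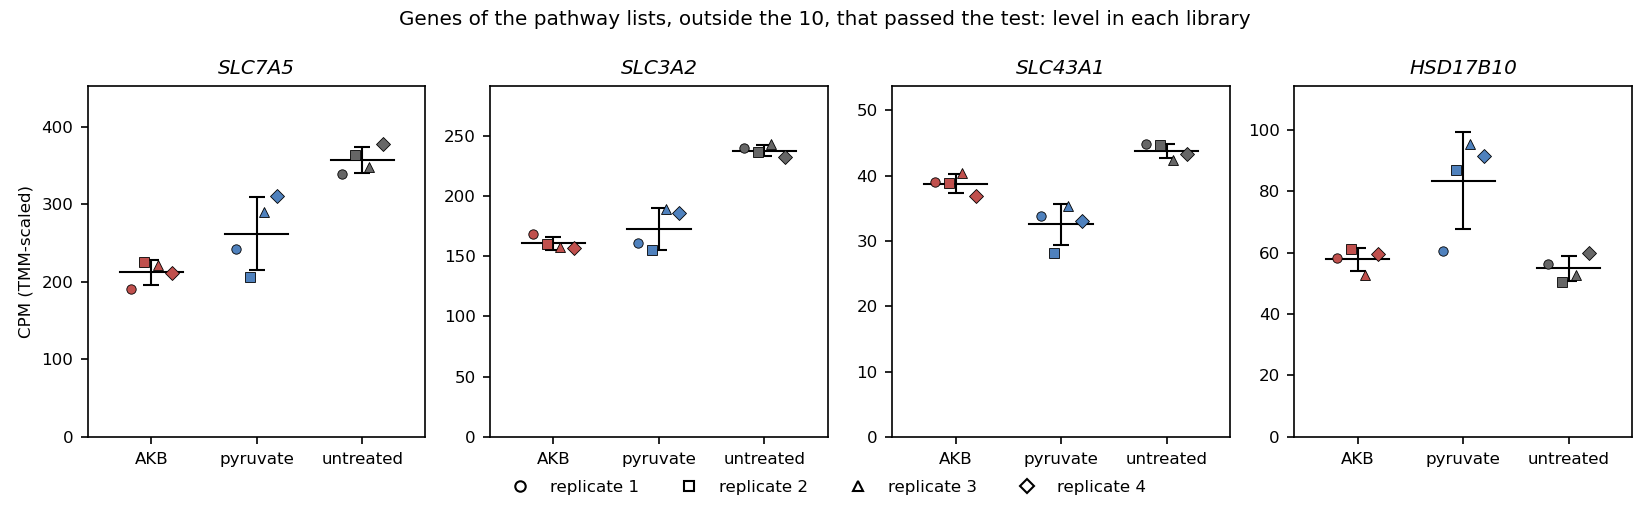
Level in every library (TMM-scaled CPM, linear axis from 0) of the 4 genes of the pathway lists, outside the 10, that passed the test in at least 1 comparison, with AKB left, pyruvate in the middle and untreated right. Marker shapes give the replicate number, the long line the mean and the error bar 1 SD (n = 4). All AKB and pyruvate libraries of SLC7A5 and SLC3A2 lie below the untreated ones, and HSD17B10 is high in pyruvate replicates 2 to 4.

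The authors' deposited table gave values of the same genes from their own DESeq2 comparisons, with untreated cells on top of the ratio in both comparisons against them. For BCAT1 the authors' deposited table has a log2 ratio of untreated over AKB of 0.44 (adjusted p = 0.00766) and of untreated over pyruvate of 0.53 (adjusted p = 0.000444), so that it is lower in both treatments there. For ACADSB the authors' deposited table has −0.48 for untreated over AKB, higher with AKB but short of the threshold (adjusted p = 0.0599), and −0.24 for untreated over pyruvate (adjusted p = 0.334). For PPM1K the authors' deposited table has 0.51 for untreated over pyruvate (adjusted p = 0.0323) and 0.36 for untreated over AKB (adjusted p = 0.280). For AKB over pyruvate the authors' deposited table has 0.092 for BCAT1 (adjusted p = 0.697) and 0.24 for ACADSB (adjusted p = 0.398). DESeq2's Wald test on the deposited counts gave 0.26 for BCAT1 and 0.33 for ACADSB in that comparison, so the deposited counts did not return the authors' values with the settings used here. How the authors set up their fit is not stated in these sources.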

How the data were processed

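The values the authors deposited are estimated counts per Ensembl gene, and the submitters' processing notes name Salmon 1.2.1. The sources used here do not give the genome build, the annotation or the settings. Their values are whole, so rounding changed 0 of them. The authors also deposited comparisons with the columns that DESeq2 writes, and the notes name DESeq2 1.26.0 and R 3.6.3. Per the file headers these hold a mean normalised signal, a log2 fold change with its error, a test score, and a p-value with its adjusted form. The score and the mean signal were not used. Libraries were poly(A)-selected, per the labels' protocols.

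Symbols were matched for 16937 identifiers, and length and GC content came from the longest transcript in GENCODE 29. Groups came from the sample titles. Genes were filtered with filterByExpr (minimum count 10), scaled by TMM, and tested by edgeR 4.0.16 (quasi-likelihood, R 4.3.3) in 1 fit to all 12 libraries, with Benjamini-Hochberg adjustment. Intervals are 95%. The fit was tested on simulated data. limma 3.58.1 and DESeq2 1.42.0 served alternatives, with other scalings and filters, the replicate number as a block, 8 libraries per comparison, a GC offset and each library left out.

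The rule for the 10 genes uses no measured value, but they, the lists and the alternatives were chosen with earlier results of these data known. Named were all 10 genes, called list genes (or the 2 with the smallest p of a list with none), and the 3 genes most alike to each called gene. DLD, MCCC2, PDHX, GCDH and SLC7A8 were added after their values were seen. Promoter windows and a cell type marker are not reported here.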

Additional observations from a re-analysis of the deposited data

Results flagged for a closer look

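In 30 groups of 4 libraries, the 3 groups of each of the 10 genes, 3 libraries lay farther from the other three of their group than the Dixon limit allows, where chance gives about 1 in 20. BCAT1 stood at 454.5 CPM in untreated replicate 4, below the other untreated libraries, with 0.957 of the group's range between it and the nearest. BCKDHA stood at 18.92 CPM in AKB replicate 3, below the other AKB libraries, with a share of 0.858. BCKDK stood at 35.04 CPM in untreated replicate 4, above the other untreated libraries, with a share of 0.876.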

How the results depend on the processing

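Called genes for AKB against untreated cells, 268, became 531 with DESeq2's Wald test, 158 with the replicate number as a block, 1339 with 8 libraries, 1137 with the GC offset, 1278 without pyruvate replicates 3 and 4, and 92 to 357 with 1 library left out. For pyruvate against untreated cells 265 became 152 with no filter, 1824 with DESeq2's Wald test, 565 with the block, 16 with 8 libraries, 1319 with the GC offset, 99 without those libraries, and 32 to 3611 with 1 left out. For AKB against pyruvate 426 became 214 with no filter, 1527 with DESeq2's Wald test, 6 with 8 libraries, 1975 with the GC offset, and 68 to 2111 with 1 left out. Called members, 1 in each comparison, became 2 with AKB under 8 libraries, the GC offset and the fit without pyruvate replicates 3 and 4 (BCAT1 added), and 1 to 1 with 1 left out. With pyruvate they became 0 with no filter, 8 libraries or without those libraries, 2 with DESeq2's Wald test or the GC offset, and 0 to 4 with 1 left out. For AKB against pyruvate they became 0 with no filter, the block, 8 libraries, the GC offset or without those libraries, and 0 to 1 with 1 left out. The causes were not tested.

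ACADSB with AKB was called in 22 of 22 alternatives (log2 0.43 to 0.51, adjusted p between 1.68e-05 and 0.0420). BCAT1 with pyruvate was below 0 in 22 and called in 9 (−0.70 to −0.33), and ACADSB for AKB against pyruvate was above 0 in 22 and called in 7 (0.16 to 0.38). With 1 library left out, these last calls were made in 2 of 12 fits each, those without pyruvate replicate 1 or 2 (adjusted p between 0.0111 and 0.147 for BCAT1, and between 0.0115 and 0.111 for ACADSB). No called value changed sign.

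Deviations from the group mean had correlations of −0.16 to 0.44 in 12 same-numbered pairs of libraries, and of −0.43 to 0.40 in other pairs. Of 12 libraries, 0 correlated best with their own number in both other groups. Such correlations cannot tell whether same-numbered libraries were handled together, and the titles give only the number. With the replicate number as a block ACADSB for AKB against pyruvate had an adjusted p of 0.0546. Depth limits IVD most, with 72 to 148 counts per library.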
